A study of Drosophila melanogaster with 2 samples.

Results

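The genes described here encode the proteins of the cytosolic ribosome of Drosophila melanogaster. They were taken from the Ensembl annotation of the dm6 assembly as every protein-coding gene whose symbol starts with RpL (large subunit) or RpS (small subunit), which gave 92 of 13968 protein-coding genes. Mitochondrial ribosomal protein genes, whose symbols start with mRp, were not members. The symbol rule took in 5 genes ending in -like. Of these, RpL24-like, RpL7-like and RpLP0-like are related to the yeast ribosome assembly factors Rlp24, Rlp7 and Mrt4, and are not proteins of the mature ribosome in yeast. It left out sta and Rack1, which encode ribosome components under other names. By role, the members were 37 small subunit genes, 47 large subunit genes, 3 genes of the ribosomal stalk (RpLP0, RpLP1 and RpLP2) and the 5 -like genes.

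The data were chromatin immunoprecipitation with sequencing (ChIP-seq) from whole embryos of mixed sex, labelled 2 to 12 h old. The embryos came from a transgenic line, strain twi in the labels, that stably expresses Twist (gene twi) with GFP at its C-terminus, and the chromatin was pulled down with an antibody against GFP. There was 1 group with 2 biological replicates, and no untagged embryo, other stage or other factor was compared here. The deposited lists held 30000 peaks for replicate 1, 30000 for replicate 2, 30000 for the pooled replicates and 6516 in the authors' list thresholded by IDR (irreproducible discovery rate), a measure of how well peaks repeat between replicates. The 6516 IDR peaks were exactly the highest-signal peaks of the pooled list. What is known of the line limits the data as follows: Twist is a mesoderm factor while the chromatin is of all tissues of the embryo, both replicates were called against the same control file, and whether the tagged protein replaces the endogenous one is not stated in the labels. Peak lists hold no read counts, so the depth is unknown, and each peak is described by its position and by its rank on the authors' signal value, with 1 the highest.

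Ribosomal protein genes are among the most strongly and widely transcribed genes of growing cells, and loss of 1 copy of many of them gives the slow-growing, short-bristled Minute flies. In Drosophila their promoters are known for the TCT initiator, a pyrimidine-rich start that takes the place of the usual initiator and works with the TATA-binding-protein relative TRF2. Other elements found at fly promoters of widely expressed genes are the DRE, bound by DREF, and motif 1, bound by M1BP. Twist is a basic helix-loop-helix protein, a class of factor that binds E-boxes of the form CANNTG, with CATATG and CACATG among the forms known for Twist.

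The sequences that carry the comparison are 101-base windows of the dm6 reference (Release 6) centred on the strongest promoter peak, each given 5′ to 3′ on the strand of the gene. RpL14, of the large subunit, is shown because it is one of the few with a Twist-type E-box. Its window spans chr3L:8600921-8601021 (plus strand), and the capitals mark CACATG.
RpL14 summit: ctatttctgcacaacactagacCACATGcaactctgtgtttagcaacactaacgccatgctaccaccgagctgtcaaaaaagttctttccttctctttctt
Windows with a DRE are shown for 4 genes, with TATCGATA in capitals. They are RpS25 at chr3R:11216278-11216378 (minus), RpS10b at chrX:19597943-19598043 (plus), RpL27 at chr3R:25685034-25685134 (minus) and RpL28 at chr3L:3222977-3223077 (minus).
RpS25 summit: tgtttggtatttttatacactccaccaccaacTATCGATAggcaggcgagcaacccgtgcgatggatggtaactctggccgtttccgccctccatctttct
RpS10b summit: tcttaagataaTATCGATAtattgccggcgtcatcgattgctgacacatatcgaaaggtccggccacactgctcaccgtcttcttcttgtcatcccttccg
RpL27 summit: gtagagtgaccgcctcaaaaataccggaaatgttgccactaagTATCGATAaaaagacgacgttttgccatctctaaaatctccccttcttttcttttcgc
RpL28 summit: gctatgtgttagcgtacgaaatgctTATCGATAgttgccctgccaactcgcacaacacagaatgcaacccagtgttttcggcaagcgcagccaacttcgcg
RpLP1 and RpL6 stand for the windows with the motif 1 core, GGTCACAC in capitals, at chr2L:419865-419965 (plus) and chr3R:31596196-31596296 (minus).
RpLP1 summit: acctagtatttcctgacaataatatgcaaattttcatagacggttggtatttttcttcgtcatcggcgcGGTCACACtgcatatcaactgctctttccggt
RpL6 summit: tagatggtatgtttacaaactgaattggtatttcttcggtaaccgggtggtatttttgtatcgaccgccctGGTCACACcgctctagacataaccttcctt
The last set shows 30 bases around an annotated start, with the initiator letters CTTT in capitals where their C lies within 5 bp of the start. It holds RpS27 (chr3R:25247453-25247482, minus), RpL34b (chr3R:9401207-9401236, minus), RpLP0 (chr3L:22076082-22076111, plus), RpL7 (chr2L:10201090-10201119, plus) and RpL23A (chr3L:1668635-1668664, minus). RpL26 (chr3L:18898865-18898894, plus) is shown as a start without it.
RpS27 start: atttaccccacttcCTTTtccgtgttagct
RpL34b start: aacagggttgccacCTTTctttctagtttc
RpLP0 start: ccgccaacttcactCTTTccgttctgtgag
RpL7 start: gcacgtttccggtCTTTctttccctttctt
RpL23A start: cccctcagttttcCTTTtcatttctttttc
RpL26 start: gatactagctgaattaaattaaacagttac

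A summit, the highest point of a peak, lay within 500 bp of an annotated start of 66 of the 92 ribosomal protein genes in the IDR list, which is 71.7%. The same held for 20.9% of all protein-coding genes. In the longer lists the count was 87 members in replicate 1 (background 47.7%), 80 in replicate 2 (47.1%) and 83 in the pooled list (45.4%). All 80 members found in replicate 2 were also found in replicate 1. Of the 6579 protein-coding genes with a summit in replicate 2, 5789 also had one in replicate 1. Those 5789 were 41.4% of all protein-coding genes. A total of 63 members had a summit in all 4 lists and 5 had none in any. There was 1 group, so no test over samples was possible, and these shares are descriptions of the lists. Members had more annotated starts than protein-coding genes in general (mean 1.68 against 1.41), which widens the window searched. Among the 48 members with 1 annotated start, 29 had an IDR summit (background 16.2% of genes with 1 start), and among the 44 with several starts 37 had one (background 34.1%).

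**Figure D1:**
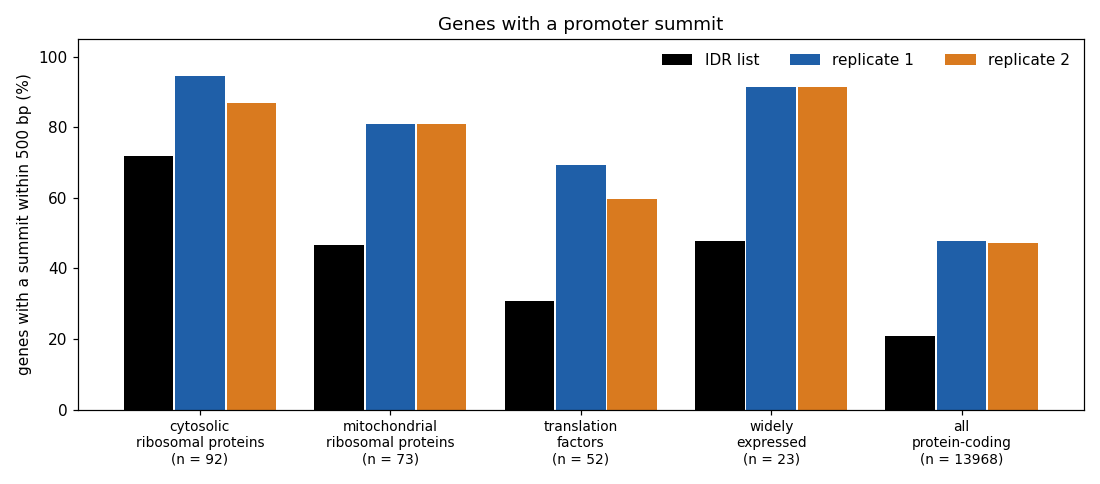
Bars give the percentage of genes with a peak summit within 500 bp of an annotated start, for each gene list on the x axis and for the IDR, replicate 1 and replicate 2 lists; there are no error bars because each bar is 1 count. Cytosolic ribosomal protein genes stand at 71.7% in the IDR list, against 46.6% for mitochondrial ribosomal protein genes, 30.8% for translation factors, 47.8% for 23 widely expressed genes and 20.9% for all protein-coding genes.

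All 3 stalk genes, whose proteins recruit translation factors to the ribosome, had an IDR summit. RpLP0, the base of the stalk, ranked 1279 in the IDR list (1122 in replicate 1 and 1641 in replicate 2), RpLP2 2292 and RpLP1 2687. Of the large subunit genes 37 of 47 had one, of the small subunit genes 24 of 37 and of the -like genes 2 of 5. Members with a summit lay on every chromosome arm that carries a member. The counts were 13 of 19 on 2L, 15 of 21 on 2R, 10 of 14 on 3L, 16 of 23 on 3R, 11 of 14 on X and the single member on chromosome 4, RpS3A. Many ribosomal protein genes of flies carry small nucleolar RNA (snoRNA) genes in their introns. By the annotation, 28 members held 74 snoRNA genes in all, counted on the same strand anywhere within the gene. Of those 28, 24 had an IDR summit, against 42 of the 64 members without a snoRNA gene. The share for other genes that hold snoRNA genes was not counted, and the number of starts was not taken into account.

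In the IDR list, 3 gene lists outside the symbol rule gave lower shares than the members. Of the ribosome components outside the rule, both sta, a small subunit protein, and Rack1, a scaffold on the small subunit, had an IDR summit, at ranks 5440 and 3179. Of the mitochondrial ribosomal protein genes 34 of 73 had one. Their strongest, mRpS10, ranked 8, far ahead of any cytosolic member. Of the cytosolic initiation and elongation factors (symbols eIF and eEF) 16 of 52 had one, including eEF1gamma at rank 1251 and eEF2 at 4212. This count includes eIF1, whose summit at rank 1757 was also that of the member RpL28. A list of widely expressed genes outside the ribosome, such as those for glycolytic enzymes, actins and heat shock proteins, had 11 of 23, with Eno at rank 164 and Gapdh2 at 244. In the replicate lists the widely expressed genes were close to the members: 94.6% of members and 91.3% of widely expressed genes had a summit in replicate 1, 87.0% and 91.3% in replicate 2, and 87.0% of each in both. These lists were compared by counts alone.

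The strongest member peak was at RpS27, a zinc-finger protein of the small subunit, at IDR rank 441, with rank 308 in replicate 1 and 884 in replicate 2. RpL34b, of the large subunit, ranked 551 (427 in replicate 1 and 898 in replicate 2). RpL14 was at 901 (648 and 1644) and RpS23, a protein of the decoding centre, at 1000 (1050 and 942). Others among the 10 strongest were RpS25 (1050), RpL13A (1214), RpLP0, RpL7 (1303) and RpL23A (1339), the last a protein at the exit of the nascent peptide. All of the members just named were higher in replicate 1 than in replicate 2, except RpS23. RpL3 and RpL8, which lie near the peptidyl transferase centre, had promoter peaks at ranks 4948 and 4593.

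Members with a promoter peak were spread over the IDR list, the strongest of them at rank 441. Their ranks ran from that to 6507 with a median of 3018.5, beside a median of 3053 and a range of 6 to 6513 for the strongest promoter peaks of other protein-coding genes. No member was in the first 100, where 35 of the 13876 other protein-coding genes had a promoter summit. In the first 1000 there were 5 members, 7.58% of the 66, against 15.5% of the 2859 other genes with an IDR summit. Counted over all genes, with or without a summit, that was 5 of 92 members and 443 of 13876 other genes, a larger share of the members. In the full replicate lists the medians were 3268 of 30000 for members against 7159 for other genes in replicate 1, and 5017 against 8307 in replicate 2. At the upper end the longer lists differed less: the first 1000 peaks of replicate 1 held 8 of 87 members, or 9.20%, against 8.13% of other genes with a summit in that list. In replicate 2 it was 3.75% of members and 5.05% of other genes, and in the pooled list 6.02% and 7.07%.

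**Figure D2:**
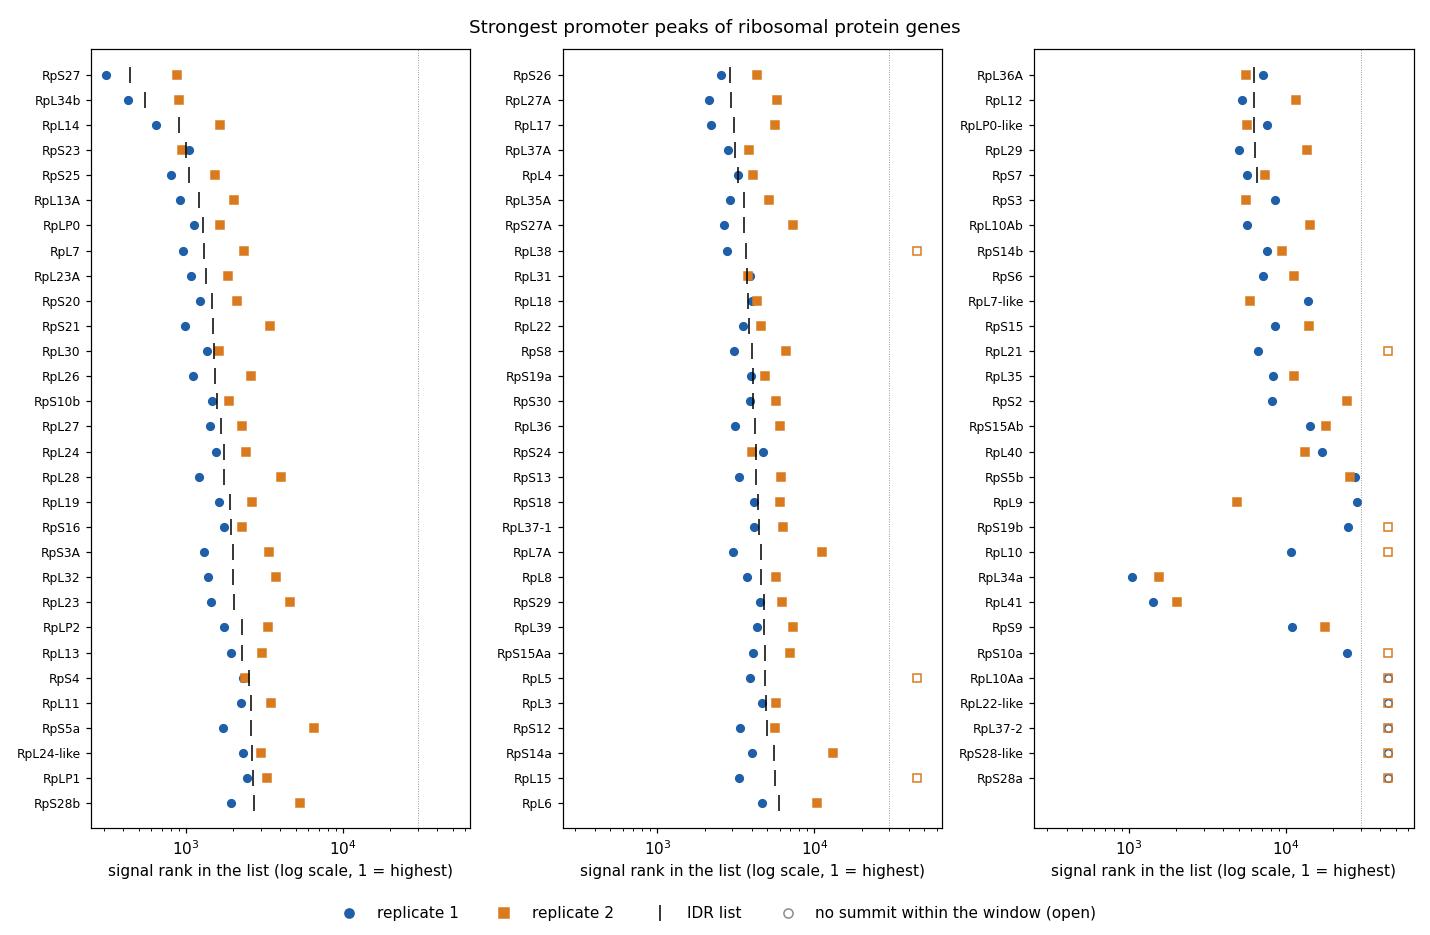
Each row is 1 of 89 members, ordered by its rank in the pooled list, and the x axis gives the signal rank of its strongest promoter peak (log scale, 1 the highest) in replicate 1, replicate 2 and the IDR list; open symbols at the right edge mark lists without a summit within 500 bp. For most members the circle of replicate 1 lies left of the square of replicate 2, and RpL34a and RpL41 stand out in the last column with ranks of 1043 and 1421 in replicate 1 and no IDR mark.

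The replicates ordered the members in much the same way, with a shift between them. Across the 80 members in both lists Spearman's rho of the ranks was 0.845, beside 0.832 across 5709 other protein-coding genes. Both are across genes, which are not independent replicates and share the control file. The strongest promoter summits of the 2 replicates lay a median of 38 bp apart for members, against 41 bp for other genes. They were within 100 bp in 67 of 80 members and in 75.3% of other genes. Among genes with an IDR summit the median was 34 bp for members and 26 bp for other genes. Within 100 bp were 87.3% of those members and 89.0% of those other genes. The rank number was lower, that is the peak higher, in replicate 1 for 70 of the 80 members, which is 87.5%, while the same held for 65.4% of all protein-coding genes in both lists. The rank in replicate 2 was a median of 1.60 times that in replicate 1 for members and 1.22 times for other genes. Among genes with an IDR summit, the replicate 1 rank was the lower number in 58 of 63 members, against 75.0% of other genes. With 1 library per replicate, no test of this shift was possible, and library depth or quality was not measured here.

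The largest shifts towards replicate 1 were at RpS5a, of the small subunit, with rank 1735 in replicate 1 and 6523 in replicate 2, a ratio of 3.76, and at RpL7A, with 3022 and 11259, a ratio of 3.73. RpS21 (985 and 3441), RpL28 (1208 and 4059) and RpS14a (3985 and 13140) followed with ratios of 3.49, 3.36 and 3.30. In the other direction RpL9 was at 28286 in replicate 1 and 4867 in replicate 2, so that the number in replicate 1 was 5.81 times that in replicate 2. The summits behind those ranks differed too, at 176 bp upstream and 33 bp downstream of a start of RpL9. The next were RpL7-like (13846 and 5881, ratio 2.35), RpS3, of the mRNA entry channel (8535 and 5606, ratio 1.52), RpLP0-like (ratio 1.34) and RpL36A (ratio 1.29).

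Member summits lay closer to the start than those of other promoters with a peak. The strongest IDR summit of a member lay at a median of -40.5 bp from the nearest annotated start, with negative values upstream (quartiles -73.75 and -10.25, range -477 to 114), against a median of -134 for the 2859 other protein-coding genes. Within 100 bp of a start were 55 of the 66 members, or 83.3%, where the background over all protein-coding genes with an IDR summit was 31.4%. A summit shared by neighbouring genes was counted for each of them, also where it was nearer to the other start. Counted once each, 854 of 2273 IDR summits at other coding promoters were within 100 bp. Upstream of the start were 58 of the 66 members (background 86.5%), so the side was the same and the distance shorter. In the replicate lists the members' medians were -51 in replicate 1 and -34 in replicate 2, against -105 and -97 for other genes. For mitochondrial ribosomal protein genes the median in the IDR list was -143.5, and 10 of 34 were within 100 bp. Short distances were also found outside the members, at -7 bp for sta and -2 bp for Rack1. Among the translation factors the distance ran from -314 bp (eIF1) to 402 bp (eEF1alpha1), with eEF2 at -4 bp and eEF1gamma at -23 bp. The summit counted for eIF1 was also that of the member RpL28, 67 bp upstream of a start of RpL28, so it cannot be assigned to eIF1 alone.

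**Figure D3:**
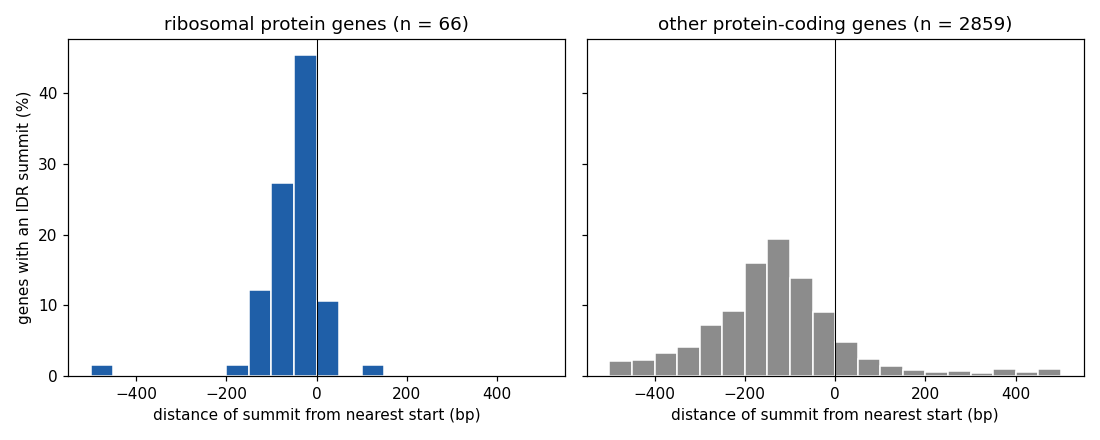
Bars show the percentage of genes in each 50 bp bin of the signed distance from the nearest annotated start to the strongest IDR summit, negative values being upstream, for 66 ribosomal protein genes on the left and 2859 other protein-coding genes on the right. The members form 1 narrow peak just upstream of the start with RpS23 alone at -477 bp, while the other genes spread with a median of -134 bp.

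By the annotation, 49 of the 66 summits were upstream of the gene, 16 in exon sequence outside the coding part and 1, at RpL26, in an intron 114 bp downstream of a start. RpS7, RpL3, RpS18 and RpL27A had their summits 3, 5, 4 and 4 bp upstream of a start, and RpS19a and RpS29 1 bp upstream. Many fly genes have a neighbour that starts close by on the other strand. Another protein-coding gene started within 500 bp of the summit in 31 of the 66 members (background 56.5%), and that start was the nearer one in 4 (background 27.3%): RpS20, RpL13, RpL24-like and RpL29. The nearer neighbour of RpL13 was Dref, the gene of the DRE-binding protein, whose start was 25 bp from the summit against 59 bp for RpL13.

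RpS23 was the member just inside the 500 bp window, with its strongest IDR summit 477 bp upstream. It had a second, weaker summit near its start that was not in the IDR list, at 18 bp and rank 10809 in the pooled list, 10 bp and rank 7274 in replicate 1 and 37 bp and rank 12874 in replicate 2. RpS28a was just outside, with an IDR summit 559 bp downstream of its start at rank 2814, 591 bp at rank 5068 in replicate 1 and 520 bp at rank 1442 in replicate 2. The gene is 304 bp long, so these summits lay beyond its end. RpS6, the substrate of S6 kinase, had no IDR summit, and its strongest pooled summit was 408 bp upstream at rank 8091.

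Of the 26 members without an IDR summit within 500 bp, 17 still had a promoter summit in both replicate lists (background 26.6% of protein-coding genes without an IDR summit). Over all 92 members the count was also 17, beside a background of 21.0% of all protein-coding genes. Several were just past the end of the IDR list. RpS3 had pooled rank 6580 with its summit at the start itself, RpL10Ab 7100, RpS14b 7724 and RpS6 8091. Further down were RpL7-like (9089), RpS15 (9956), RpL35 (11167), RpS2 (12918), RpS15Ab (13931) and RpL40, whose protein is made fused to ubiquitin (14163). RpS5b and RpL9 came last of the 17 with pooled ranks, at 18945 and 24566.

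The other 3 of those 17 had a summit in both replicates and none within 500 bp in the pooled list. RpL34a had rank 1043 in replicate 1, 127 bp upstream, and 1544 in replicate 2, 35 bp upstream. RpL41, which encodes one of the shortest ribosomal proteins, had rank 1421 in replicate 1, 109 bp upstream, and 2013 in replicate 2, 40 bp upstream. RpS9 had ranks of 10973 and 17749. By replicate rank RpL34a and RpL41 would thus stand among the stronger members. The peaks at RpL34a were also those of Trmt61, a gene outside the members with the same ranks, so they cannot be assigned to RpL34a alone. Of 52 members with a promoter summit among the 6516 highest of each replicate, RpL34a and RpL41 lacked a pooled summit within 500 bp. Over all protein-coding genes it was 22 of 2300, or 0.957%, and some of these genes share a peak, such as mrn and CG12301.

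A summit in replicate 1 alone was found at 7 of the 92 members (background 6.27%), so such members were about as frequent as among all genes. RpL38 (rank 2779), RpL15 (3327) and RpL5, which carries 5S RNA into the large subunit together with RpL11 (3912), were among them and had IDR summits at ranks 3658, 5651 and 4846. The other 4 were RpL21 (6607), RpL10, which joins the large subunit late in its assembly in yeast (10796), RpS10a (24542) and RpS19b (24857), and had no IDR summit. No member had a summit in replicate 2 alone. The 5 members without a summit within 500 bp in any list were RpL10Aa, RpL22-like, RpL37-2, RpS28-like and RpS28a. Each of the 5 has a relative of nearly the same symbol among the members.

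There were 14 pairs of members whose symbols differ only in a last letter a or b or by -like. In 10 pairs 1 of the genes had an IDR summit, in 2 pairs both and in 2 neither. The genes RpS5b, RpS19b and RpL22-like are known for expression enriched in the germline, and none had an IDR summit within 500 bp, whereas their partners RpS5a (rank 2606), RpS19a (4059) and RpL22 (3838) did. RpS5b was at ranks 27718 and 25655 in replicates 1 and 2, where RpS5a was at 1735 and 6523. RpS10b (1581), RpS15Aa (4822), RpS14a (5507), RpS28b (2701), RpL34b (551) and RpL7 (1303) had one where RpS10a, RpS15Ab, RpS14b, RpS28a, RpL34a and RpL7-like did not, and RpS28b is also paired with RpS28-like. RpL34a and RpS14b nevertheless had promoter peaks in both replicates, RpS14b at 7614 and 9491. The pairs with 2 summits were RpL24 (1748) with RpL24-like (2627), and RpLP0 (1279) with RpLP0-like (6287), and those with none were RpL10Aa with RpL10Ab and RpS28a with RpS28-like. Where copies are near-identical, reads can be split between them or dropped, depending on mapping settings, which the labels and file records do not state.

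E-boxes were sought on both strands in the 101 bp centred on each summit, as the 10 types of CANNTG that remain when a type and its reverse complement are counted as one. Either Twist-type E-box, CATATG or CACATG, was found at 2 of the 66 member summits, which is 3.03% (95% Wilson interval 0.835 to 10.4%, for counting error only). It was found at 14.3% of 854 summits within 100 bp of a start of other protein-coding genes, at 16.9% of all 2273 summits within 500 bp of one, and at 34.8% of 4172 IDR summits away from coding starts. The 2 members were RpL14, with the CACATG printed above, and RpS23, with CATATG at its peak 477 bp upstream. Both are among the 5 members within the first 1000 IDR peaks. In the longer lists the count was 2 of 87 members in replicate 1 and 3 of 80 in replicate 2, against 11.5% and 11.7% of other summits at coding promoters. In the promoters themselves, from 250 bases before to 50 after the most upstream start, 10.9% of members and 16.6% of all protein-coding genes had CATATG or CACATG. The members' share rests on 10 of 92 genes and was given no interval, so whether it is lower beyond counting error was not tested.

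Any E-box was found at 23 of the 66 member summits, or 34.8%, against 48.4% of other promoter summits within 100 bp of a start, 45.8% within 500 bp and 63.9% away from coding starts. The Wilson interval of the members' share, 24.5 to 46.9%, holds the 45.8% but not the 48.4%. In replicate 1 it was 29 of 87 member summits, against 43.7% of other promoter summits, and in replicate 2 it was 32 of 80, against 43.8%. A single type stood at 18 of these members, several types at 5 and none at 43. The most frequent types were CAAGTG at 6 summits (RpL4, RpL24-like, RpL29, RpL12, RpS5a and RpL5) and CAAATG and CAACTG at 5 each. CACGTG, the form bound by Myc with Max, was at 3 summits, those of RpL29, RpL11 and RpL7, or 4.55% (Wilson interval 1.56 to 12.5%). It was at 3.04% of other promoter summits within 100 bp of a start and at 2.38% within 500 bp. RpS27, with the highest member peak, had CAGCTG, and RpL34b had no E-box in the window.

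**Figure D4:**
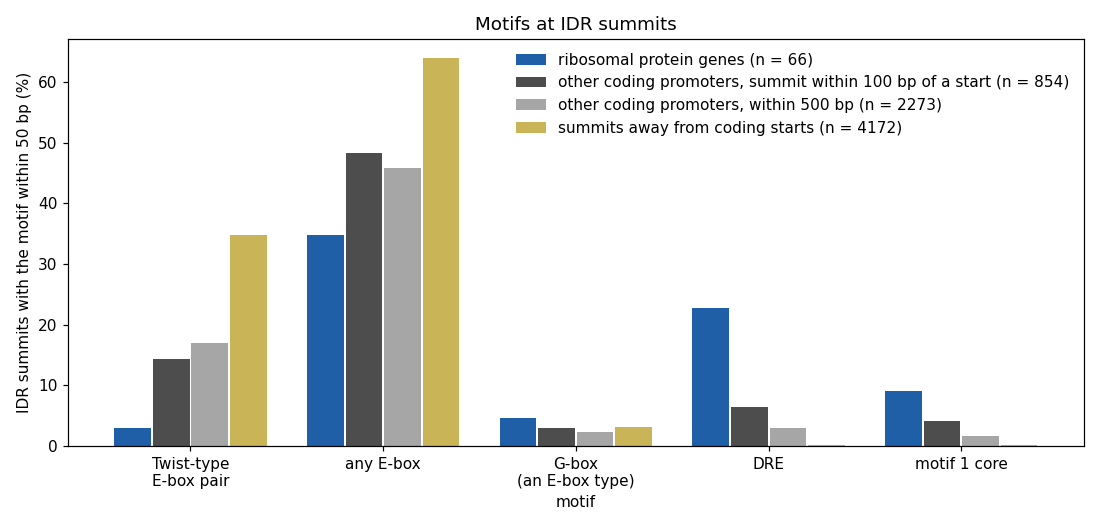
Bars give the percentage of IDR summits with a motif within 50 bp on either strand, for ribosomal protein genes (66 summits), other coding promoters with the summit within 100 bp of a start (854) or within 500 bp (2273), and summits away from coding starts (4172). The Twist-type pair is CATATG or CACATG, found at 3.03% of member summits, and the DRE and motif 1 core are found at 22.7% and 9.09% of them, the highest bars of their sets.

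Other promoter elements were frequent at the same summits. The DRE, TATCGATA on either strand, lay within 50 bp of 15 of the 66 member summits, or 22.7% (Wilson interval 14.3 to 34.2%). It was found at 6.44% of other promoter summits within 100 bp of a start, 2.95% within 500 bp and 0.192% of summits away from coding starts. Its shorter core TATCGA, part of the same letters, was at 27 of 66 summits, or 40.9%, against 19.8%, 10.2% and 2.71% in those sets. The motif 1 core GGTCACAC was at 6 summits, or 9.09%, against 4.10%, 1.72% and 0.120%. No E-box type fits inside TATCGATA or GGTCACAC, so these matches are separate from the E-box counts. No summit held both the DRE and the motif 1 core, and 21 of the 66 had one of them.

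In the windows printed above the first base of the DRE, read along the gene, lay 18 bp upstream of the summit at RpS25, 7 bp upstream at RpL27, 25 bp upstream at RpL28 and 39 bp upstream at RpS10b. The motif 1 core began at the summit base itself at RpL27A, 19 bp downstream of it at RpLP1 and 21 bp downstream at RpL6. From the nearest annotated start, the DRE at the 15 summits began between -92 bp (RpL28) and 15 bp (RpS29). Other members with a DRE at the summit were RpL19, RpL36, RpL36A, RpL37-1, RpL39, RpS12, RpS13, RpS14a, RpS15Aa, RpS24 and RpS29. In replicate 1 the DRE was at 17 of 87 member summits and in replicate 2 at 14 of 80, against 3.88% and 3.28% of other promoter summits. The base composition differed as well, with a median GC content of 46.5% at member summits, against 39.6% at other promoter summits within 100 bp of a start and 43.6% at summits away from coding starts. How far base composition or distance from the start bears on the motif shares was not tested.

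At the starts themselves, CTTT on the gene's strand with its C within 5 bp of any annotated start, the letters of the TCT initiator, was found for 58 of the 92 members, against 8.06% of all protein-coding genes. The DRE was in the window from 250 bases before to 50 after a start of 28 members, or 30.4% (background 10.2%), and the motif 1 core in that of 15, or 16.3% (background 8.69%). Unlike CTTT, the motif 1 core and TATAAA were counted on either strand. TATAAA was in the window of 47 members, 51.1%, and of 51.2% of all genes. With 100 bases before a start in place of 250 it was 15.2% of members and 28.3% of all genes. Both CTTT and DRE were found for 17 members, or 18.5%, against 0.909% of all genes, and 72 members had at least 1 of CTTT, DRE and motif 1, 78.3% against 24.1%. The members with several starts offered more positions, and with the most upstream start alone CTTT was found for 33.7% of members and 5.63% of all genes.

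Of the 58 members with CTTT at a start 46 had an IDR summit, against 20 of the 34 without. Of the 28 with a DRE 22 had one, against 44 of 64 without. Members with several starts offer more positions for a motif and for a summit alike. The number of starts was not taken into account in these splits. Outside the ribosomal protein genes, an IDR summit was found at 20.6% of all 13876 protein-coding genes. It was found at 25.7% of the 1068 with CTTT, 31.1% of the 1391 with DRE and 30.9% of the 110 with both. Summit positions also differed between members and other genes that share the initiator letters. Members with CTTT had a median of -33 bp and 42 of 46 within 100 bp of a start, against a median of -131 bp and 30.2% within 100 bp for 275 other genes with CTTT. The 20 members without CTTT had a median of -47 bp.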

How the data were processed

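ChIP-seq peak lists of 2 replicates of 1 group were used as the authors deposited them, in narrowPeak format on dm6 per the labels. Per the authors' records beside the files, each replicate was called against 1 shared control file, the pooled list came from both replicates' alignments, and the IDR list came from the replicate and pooled lists. Neither labels nor records name the aligner or the peak caller (not given in the sources used here). Peaks were ranked within each list by the deposited signal value, a score of unstated scale. The −log10 q-value deposited with each peak was tied at its highest value in 100% of IDR peaks and was not used. The summit was the deposited offset of each peak added to its start, and no peak passed a chromosome end (0 peaks).

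Members, lists and tests were chosen with earlier results of these data known. Genes and starts came from Ensembl release 115, restricted to the main chromosomes, sequence from Release 6. The strongest promoter peak of a gene was the one of highest signal with its summit within 500 bp of any annotated start, and distance was taken to the nearest start, positive downstream. Of the widely expressed genes listed, 23 were matched by symbol or synonym. Neighbouring genes can share a summit. Only counts, medians and ranks were compared, with no test, since there were 2 samples of 1 group. The depth is unknown, and Wilson intervals (95%) cover counting error. Python 3.11.15, numpy 2.4.6, scipy 1.17.1 and matplotlib 3.10.9 were used, and the code was checked on simulated peaks. Named members were the 10 strongest, all without an IDR summit or missing in a replicate, the 5 largest rank ratios in each direction, the pairs, those with CATATG or CACATG, and those at the window's edge; any other named gene was chosen after its values were seen. Some members that this rule would name are counted but not reported here by name. Alternatives were other windows, starts, list parts, motif windows and each replicate left out.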

Additional observations from a re-analysis of the deposited data

How the results depend on the processing

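No paired analysis was possible because there was 1 group. Of 46 alternative values, 40 kept the level reported within the limits set (1.5 times for a count, 1 SD between the replicates for the position, the 95% Wilson interval for a share). TATAAA, near its background at 51.1% of members and 51.2% of all genes, changed side with the most upstream start only. It was then at 47.8% of members and 45.8% of all genes, within the limits. No other result turned in direction. With the IDR peaks above the median signal, 36 members had a promoter summit (11.1% of all protein-coding genes), and the share with the lower rank number in replicate 1 was 97.2% (81.5% of all protein-coding genes, against 65.4% with the full lists). With as many highest peaks of each replicate as the IDR list holds, 52 members were in both (16.5% of all protein-coding genes). With 25 bp to each side of the summit, CATATG or CACATG was at 0.00% of member summits and 9.37% of other promoter summits. With the most upstream start only, CTTT was found for 33.7% of members, and with 100 bases before a start TATAAA was found for 15.2% of members and 28.3% of all genes. A smaller list, window or set of starts lowers 5 of these 6 values by construction; for the share of 97.2% the cause was not tested. Without 1 replicate, the highest peaks of the other taking the place of the IDR list, 57 to 68 members had a summit, the median position was -37 to -49 bp and the E-box share 5.26 to 2.94%. Chosen after seeing the data were the windows of 250 and 1000 bp for the other gene lists, the ranks of members with an IDR summit, and leaving out summits nearer to another coding start, which left 62 members. The unknown depth limits what the absence of a peak shows.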

Other observations

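The 6-base words at member summits were also counted, a choice made after the data were seen. Of all words, TATCGA differed most in share between member summits and other promoter summits, at 40.9% against 10.2%, followed by ATCGAT at 31.8% against 7.88% and CGATAG at 30.3% against 7.66%, which overlap it in the DRE. The next among words more frequent at member summits, GCAGCC, was at 22.7% against 4.31%. In the other direction ATTAAA was at 4.55% of member summits against 24.4%, and AAATAT at 12.1% against 31.4%. These other summits lay within 500 bp of a start, and within 100 bp the share for TATCGA was 19.8%. The word AAAGAA, whose complement TTCTTT resembles the pyrimidine-rich initiator, was at 28.8% against 12.3%. Members were short genes, with a median length of 1315 bp against 2164.5 bp for all protein-coding genes. A second IDR summit within 500 bp was found at 5 members, among them RpL27A, RpL28, RpL34b and RpS25.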
